A study of Mus musculus with 8 samples.

Results

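The genes of the ADAM and ADAMTS proteases and of their TIMP inhibitors were followed in fibroblasts of the mouse colon. The members were the genes whose symbol begins with Adam and a digit or with Adamts, together with Timp1 to Timp4, as far as a probe set of the array (a transcript cluster) named that gene's symbol and no other. This gave 58 genes of the 30702 that the array measured in this way, each with 1 cluster. The cluster of Adam22 carries more than 1 Entrez identifier under its symbol. Clusters that also named another gene took Adam1a, Adam12 and Adam34 out, and Adamts2 was not analysed here. Fibroblasts from the colon of wild-type C57BL/6J mice had been sorted by flow cytometry as cells without Epcam, CD45 and CD31 and with gp38 (podoplanin) on their surface, and had then been divided into a CD90- and a CD90+ population. Each population had 4 samples, hybridised to 1 array each; the CD90- samples carry the numbers 13, 15, 17 and 19 in their titles and the CD90+ samples 14, 16, 18 and 20. Both populations came from 4 mice whose age the labels do not give, and the labels do not tell which CD90- and CD90+ samples stem from 1 animal. The p-values therefore cover the spread among the 8 samples, which may in part be technical.

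ADAMs are membrane-anchored metalloproteases with a disintegrin domain. Many of them cut growth factors, cytokines, receptors and adhesion proteins off the cell surface, a process called shedding, while some have lost the catalytic zinc site and act in adhesion. ADAMTS proteases are secreted, carry thrombospondin repeats and cut matrix proteins such as proteoglycans and the propeptides of collagens; ADAMTS-like proteins resemble them without the protease domain and bind matrix. TIMPs inhibit matrix metalloproteinases, and TIMP3 also inhibits ADAM17 and several ADAMTS proteases. In the gut wall fibroblasts are a main source of matrix and of the enzymes that remodel it.

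Levels below are the authors' log2 values, summarised by mean and SD over the 4 samples of a population, and a difference is the CD90+ mean minus the CD90- mean. Some values exceeded what a 16-bit scanner can record, with a maximum of 19.9, so a difference on this scale is not a measured ratio of RNA amounts. Thy1, which codes for CD90, was at 7.03, 8.11, 7.69 and 7.94 in CD90+ samples 14, 16, 18 and 20 and between 5.46 and 5.57 in the CD90- samples (exact permutation p = 0.0286, two-sided, the lower limit for 70 assignments; were the samples 4 pairs, the limit would be 0.125). The list of fibroblast markers averaged 14.94 to 15.13 in CD90- and 15.03 to 15.14 in CD90+ samples, but single genes of it differed. Of its 9 measured genes 3 were called higher in the test described below and 2 lower. Dcn, Lum and Vim were higher by 0.75, 0.69 and 0.38, and Col6a1 and Col1a2 had differences of -1.14 and -0.72. Pdpn, the gene of the sorting marker gp38, was at 13.17 ± 0.2 and 13.2 ± 0.22, and Pdgfra was not among the genes measured here. Epcam was at 8.06 ± 0.83 and 8.19 ± 0.83 and Pecam1, which codes for CD31, at 6.24 ± 0.34 and 6.59 ± 0.51, so that Epcam, although gated out, lay above the negative control rows described below. Samples 13 and 14 stood apart from the other 6: Xist was at 16.16 and 16.27 there and between 5.89 and 9.32 elsewhere, and the Y-linked gene Uty at 5.49 and 5.56 against 9.65 to 10.06. Of the markers of other cells, all 7 measured genes of enteric glia were higher in the CD90+ population, with list means of 5.44 to 5.81 in CD90- and 7.14 to 8.35 in CD90+ samples. Among them Gfap passed the filter described below only through the CD90+ samples, so it had to differ. Of the 10 leukocyte markers 4 were higher, and 8 were dim in both populations. The list mean was 5.41 to 5.58 and 5.67 to 6.07. Cd68, bright in both populations, was higher without overlap, at 8.75 ± 0.12 and 9.8 ± 0.49. Cx3cr1, Cd3e and Cd79a were higher too but dim. Ptprc was dim at 4.57 ± 0.12 and 4.75 ± 0.21 and was not tested. The epithelial list reached 9.7 in sample 13 and 9.74 in sample 20 and lay between 7.73 and 8.65 in the others. Endothelial list means were 6.08 to 6.57 and 6.03 to 6.67, but of 8 tested genes of the list 1 was higher and 2 were lower. Tek was higher with overlapping samples, at 8.64 ± 0.75 and 10.48 ± 0.67. Lyve1 was lower, at 6.99 ± 0.21 and 5.9 ± 0.19, and so was the dim Prox1, at 6.21 ± 0.098 and 5.72 ± 0.17. Of 7 smooth muscle markers 4 were higher and 2 lower, and of 6 pericyte markers 3 were higher and 3 lower. The smooth muscle list ran from 8.31 to 9.11 and from 8.6 to 9.83, the pericyte list from 8.05 to 8.39 and from 7.45 to 7.68, the mesothelial list from 5.42 to 6 and from 6.02 to 6.4, and the neuronal list from 5.04 to 5.18 and from 6.13 to 6.23. The list of interstitial cells of Cajal ran from 8.28 to 10.97 in CD90- and from 6.59 to 7.69 in CD90+ samples. Of its 2 measured genes Ano1 was lower in the CD90+ population, at 10.26 ± 0.76 and 7.03 ± 0.53. Kit, at 7.91 ± 1.8 and 6.96 ± 0.47, was not called in the test described below.

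Brightness was judged against the array's own negative control rows, whose median averaged 6.81 in the CD90- and 6.64 in the CD90+ samples. By this measure 24 members were bright in both populations, 3 in 1 population and 31 in neither. Adam33 was bright only in the CD90- samples, and Adamts6 and Adamts19 only in the CD90+ samples. The 31 dim members held values from 3.32 to 6.94. Among them were 13 of the 14 ADAMs that no functional list held, most of them known from testis, and 7 of the 8 ADAMs without protease activity. Dimness on the array is no proof that a transcript is missing, and the size of a dim member's difference is not exact.

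The test was run over 17221 genes that reached 5.36, the median of all clusters, in at least 4 of the 8 samples. Of the 58 members 35 passed this filter and 23 did not. With limma's moderated test and Benjamini-Hochberg adjustment over all genes tested, 21 members were higher in the CD90+ population and 5 were lower at an adjusted p under 0.05. Of all genes tested, 14.0% were called higher and 15.7% lower. The median difference of all 58 members, tested or not, was 0.12, and that of all 30702 genes measured was 0.012. Over the genes tested alone the median was -0.014. Adam22 and Adamts18 passed the filter only through the population in which they were higher, so they had to differ. The filter can therefore favour members that differ, and the fit was also made without it. There 23 of the 58 members were higher and 5 lower, where 8.04% and 8.17% of 30702 genes were called. Values of the populations did not overlap for 24 of the 35 members tested, and for 32.3% of all genes tested. In bulk samples, fewer cells of a type and less RNA per cell cannot be told apart.

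**Figure D1:**
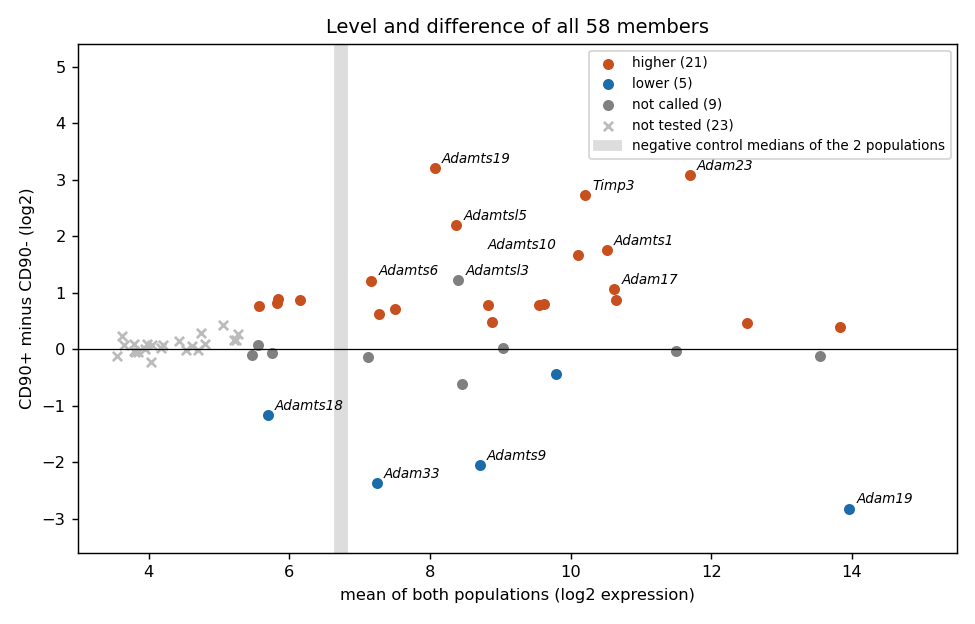
Difference (CD90+ minus CD90-, log2) of each of the 58 members against the mean of its 2 population means (log2 expression); the grey band spans the negative control medians of 6.64 and 6.81. The 23 members that were not tested lie left of the band and near 0, and the 12 members called with a difference of at least 1 in size, Adamts18 excepted, lie on or right of the band.

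**Figure D2:**
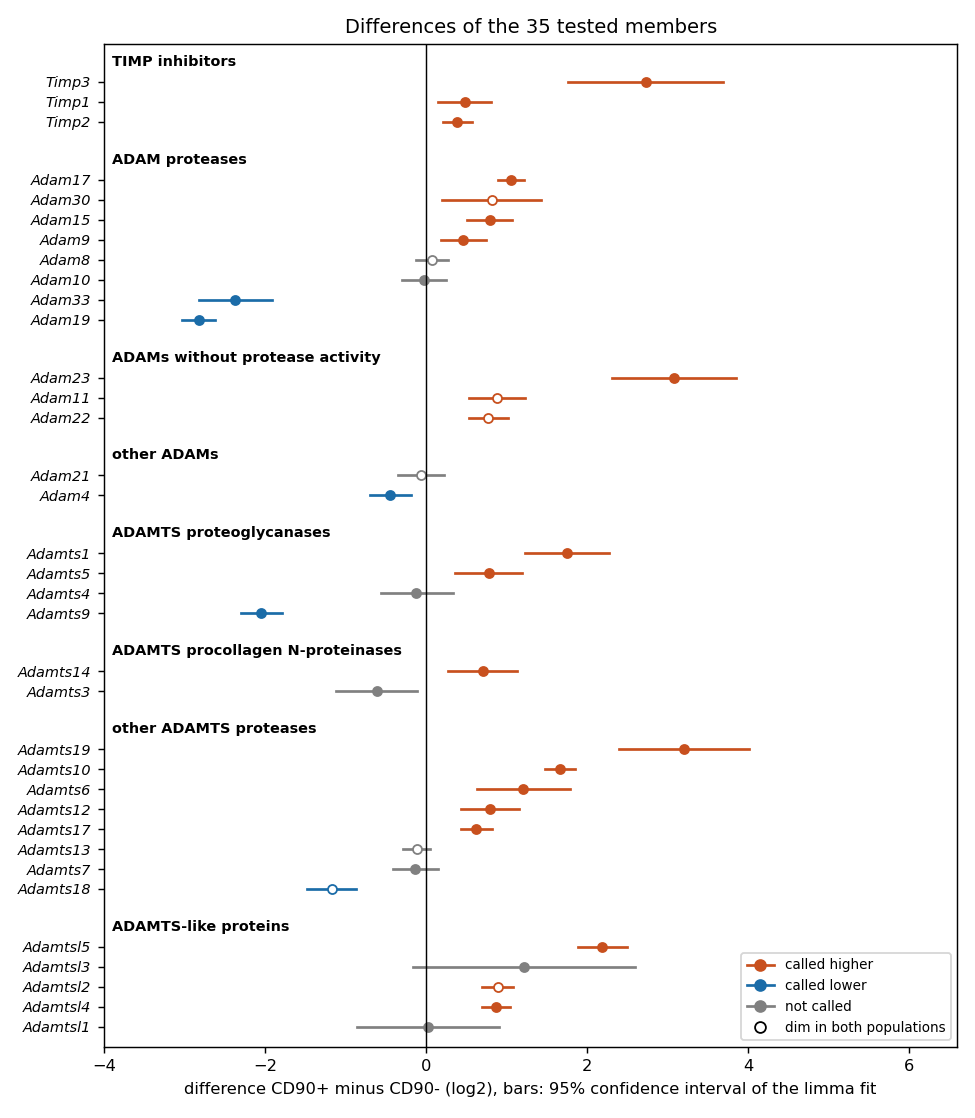
Differences of the 35 tested members (log2) with the 95% confidence interval of the limma fit, grouped by role; open circles are members dim in both populations. The 3 tested TIMPs lie right of 0, and each of the larger protease groups holds members on both sides.

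Among the inhibitors, Timp1, Timp2 and Timp3 were higher in the CD90+ population, and Timp4 was dim. Timp3, whose protein stays bound to the matrix, was at 11.72, 11.46, 11.58 and 11.53 in CD90+ samples 14, 16, 18 and 20. In CD90- samples 13, 15, 17 and 19 it was at 10.32, 8.17, 8.51 and 8.35. The populations did not overlap, although sample 13 lay well above the other CD90- samples; the difference was 2.73 (95% confidence interval 1.77 to 3.69; limma adjusted p = 0.0014). Timp2, which takes part in activating MMP2 together with MMP14, was bright throughout, at 13.46, 13.76, 13.64 and 13.68 in the CD90- and 13.94, 14.09, 13.98 and 14.07 in the CD90+ samples. Its difference of 0.39 was small but larger than the spread of either group (limma adjusted p = 0.0064). After another quantile normalization Timp2 was not called (limma adjusted p = 0.171). Timp1, an inducible inhibitor, was at 8.58, 8.47, 8.96 and 8.57 against 9.04, 9.33, 9.3 and 8.82, with overlapping samples and a difference of 0.48 (limma adjusted p = 0.0365), and it lost its call under 10 of 17 alternatives. Timp4 was at 5.16 ± 0.069 and 5.33 ± 0.033 and was not tested.

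The ADAM proteases went in both directions, with the sheddase Adam17 higher and Adam19 and Adam33 lower in the CD90+ population. Of the 9 members of this group, 4 were higher, 2 lower and 2 not called, and Adam28 was not tested. Adam19, whose protein (meltrin beta) is known to shed neuregulin-1, was at 15.18, 15.34, 15.48 and 15.49 in CD90- samples 13, 15, 17 and 19. In CD90+ samples 14, 16, 18 and 20 it was at 12.4, 12.61, 12.65 and 12.54. Both groups were tight and far apart, and the difference of -2.82 (95% confidence interval -3.03 to -2.62) had the smallest p of all members (limma adjusted p = 2.64e-07). Adam33 was at 8.53, 7.82, 8.89 and 8.48 in the CD90- and at 6.2, 5.86, 6.12 and 6.07 in the CD90+ samples, in the order of their numbers. Its CD90+ values lay below the negative control rows, and the difference was -2.37 (limma adjusted p = 4.65e-05). ADAM33 is an ADAM known from mesenchymal cells of the airway wall.

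Adam17 codes for the enzyme that releases TNF and ligands of the EGF receptor. It was at 9.96, 10.02, 10.23 and 10.15 in the CD90- and at 11.1, 11.18, 11.12 and 11.19 in the CD90+ samples. The 4 CD90+ values lay within 0.1 of each other and all above the CD90- values, and the difference was 1.06 (95% confidence interval 0.89 to 1.22; limma adjusted p = 1.45e-05). Adam10, the other main sheddase and the one that cuts Notch receptors, was bright in both populations at 11.52 ± 0.078 and 11.49 ± 0.25. It was not called (limma adjusted p = 0.892), and the interval of its difference ran from -0.3 to 0.25. Adam15, an ADAM with an integrin-binding disintegrin domain, was at 8.79, 8.17, 8.42 and 8.35 in the CD90- and 9.17, 9.24, 9.17 and 9.3 in the CD90+ samples, higher by 0.79 (limma adjusted p = 0.00144). Adam9, a widely expressed sheddase, was at 12.07, 12.33, 12.28 and 12.45 in the CD90- and 12.47, 12.84, 12.7 and 12.97 in the CD90+ samples, higher by 0.46 (limma adjusted p = 0.0204). Without sample 16 or without sample 20 Adam9 was not called (limma adjusted p = 0.0544 and 0.0548). Adam30 was dim, with overlapping values, and passed narrowly (difference 0.82, limma adjusted p = 0.0499); it lost its call under 10 of 16 alternatives. Adam8, known from leukocytes, was dim at 5.51 ± 0.13 and 5.59 ± 0.12 and was not called (limma adjusted p = 0.545).

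The 3 tested ADAMs without protease activity were Adam11, Adam22 and Adam23, and all of them were higher in the CD90+ population. Their proteins are known from the nervous system, where ADAM22 and ADAM23 bind the secreted LGI proteins. Adam23 was at 9.39, 11.06, 9.84 and 10.29 in CD90- samples 13, 15, 17 and 19 and at 13.73, 13.27, 12.99 and 12.92 in CD90+ samples 14, 16, 18 and 20. It was bright in every sample, with sample 15 the highest of the CD90- and sample 14 the highest of the CD90+ samples. The difference was 3.08 (95% confidence interval 2.31 to 3.85; limma adjusted p = 0.000199). Adam11 was dim in both populations, at 5.71 ± 0.059 and 6.6 ± 0.33 (limma adjusted p = 0.0023). Adam22 was dim too, at 5.19 ± 0.11 and 5.96 ± 0.2; without the filter, which it passed only through the CD90+ samples, its limma adjusted p was 0.00106.

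Markers of enteric glia and a marker of neurons moved with these genes; those named here and for sample 13 were chosen after their values were seen. The glial markers Kcna1 and Cdh19 were at 5.57 ± 0.32 and 5.28 ± 0.32 in the CD90- and at 10.76 ± 1 and 10.44 ± 1.2 in the CD90+ samples. The glial transcription factor gene Sox10 was at 5.64 ± 0.064 and 6.87 ± 0.29. Within the CD90+ population the glial list mean was lowest in sample 14, at 7.14, while Adam23 and Adam22 were highest there, Adam22 at 6.18 against 6.06, 5.7 and 5.92 in samples 16, 18 and 20. Adam11 was lowest in sample 14, at 6.18, against 6.94, 6.49 and 6.77 in samples 16, 18 and 20. Of the 6 measured neuronal markers 3 were higher, among them Stmn2 at 6.39 ± 0.26 and 11.08 ± 0.51, while Elavl4 stayed at 4.15 ± 0.053 and 4.16 ± 0.039. Ret, also among the 3 neuronal markers called higher, passed the filter only through the CD90+ samples and had to differ. The part of these cells in the differences of Adam11, Adam22 and Adam23 was not tested.

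Adam4, known from testis, was bright at 9.68, 10.09, 10.1 and 10.16 in the CD90- and 9.43, 9.68, 9.65 and 9.53 in the CD90+ samples, and was called lower by a difference of -0.44 (limma adjusted p = 0.0201). The lowest CD90- and the highest CD90+ sample were both at 9.68 when rounded. Without sample 15, 17, 19 or 20 it was not called, with limma adjusted p up to 0.0601. Adam21 was dim and not called, and the other 12 ADAMs in no functional list were not tested. Without the filter Adam5 and Adam25 were called higher, though all their values lay below the negative control rows. Adam5 went from 5.14 ± 0.049 to 5.4 ± 0.11 (limma adjusted p = 0.0312) and Adam25 from 3.51 ± 0.022 to 3.74 ± 0.095 (limma adjusted p = 0.037).

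**Figure D3:**
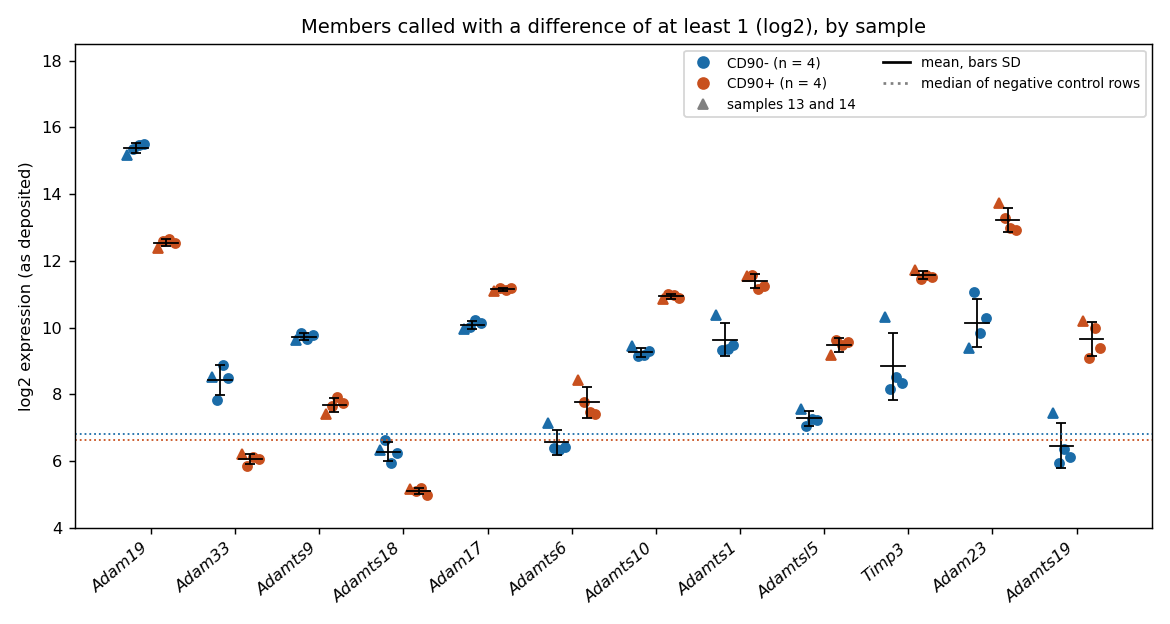
Log2 expression in each sample of the 12 members called with a difference of at least 1 in size, with mean and SD (n = 4 in each population); triangles are samples 13 and 14, and dotted lines the negative control medians of 6.81 (CD90-) and 6.64 (CD90+). The populations do not overlap for any of the 12, of which Adamts18 is dim and passed the filter only through the CD90- samples, and for Timp3, Adamts1, Adamts6 and Adamts19 the triangle of sample 13 lies above the other CD90- samples.

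The ADAMTS proteoglycanases, which cut versican and aggrecan, were divided: Adamts1 and Adamts5 were higher and Adamts9 was lower in the CD90+ population, and Adamts4 was not called. To show the regulatory sequence next to these opposite changes, and next to Timp3 as the inhibitor with the largest difference, the 250 bases before the RefSeq start of Adamts1, Adamts9 and Timp3 are given here (build GRCm38.p6; which build the array's design used is not stated). Adamts1 has chr16:85803114-85803363 on the minus strand, Adamts9 chr6:92943535-92943784 on the minus strand and Timp3 chr10:86300162-86300411 on the plus strand. Each is written 5′ to 3′ along the gene, with capitals for matches to the GC box GGGCGG, the TATA box TATAAA and the AP-1 element TGANTCA on either strand; these motifs do not overlap each other.
Adamts1: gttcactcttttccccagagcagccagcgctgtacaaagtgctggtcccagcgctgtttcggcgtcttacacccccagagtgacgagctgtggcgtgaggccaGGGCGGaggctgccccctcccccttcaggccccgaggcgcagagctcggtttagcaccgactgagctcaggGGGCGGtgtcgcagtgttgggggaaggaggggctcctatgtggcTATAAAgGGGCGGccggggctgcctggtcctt
Adamts9: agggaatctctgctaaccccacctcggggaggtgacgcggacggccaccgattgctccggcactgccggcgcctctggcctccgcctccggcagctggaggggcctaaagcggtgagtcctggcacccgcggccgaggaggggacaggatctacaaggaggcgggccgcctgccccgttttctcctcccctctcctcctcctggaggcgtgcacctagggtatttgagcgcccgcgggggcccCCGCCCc
Timp3: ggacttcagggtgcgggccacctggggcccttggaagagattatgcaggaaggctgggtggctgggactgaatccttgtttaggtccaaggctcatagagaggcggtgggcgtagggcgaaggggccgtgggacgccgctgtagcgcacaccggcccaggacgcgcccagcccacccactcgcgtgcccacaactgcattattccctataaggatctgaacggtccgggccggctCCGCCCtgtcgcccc

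The stretch of Adamts1 held 3 GC boxes and 1 TATA box, and those of Adamts9 and Timp3 held 1 GC box each. None of the 3 stretches held a match to the AP-1 element. A GC box was found in the same stretch of 32.7% of the 32851 promoters searched, a TATA box in 12.4% and an AP-1 element in 6.75%. Their G and C content was 65.6% for Adamts1 and Timp3 and 71.2% for Adamts9, where the median over all promoters was 52.4%. RefSeq's table gave exactly 1 start for 14 of the members called higher and 2 of those called lower, chromosome 18 left out; 10 of the 14 and both of the 2 held a GC box. Of the 6 members with 1 start that were tested and not called, 4 held a GC box, with a median G and C content of 64.0% against 65.6% in those called higher. Of the 10 untested members with 1 start, 1 held a GC box, and their median G and C content was 40.6%. A match describes the letters only.

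Adamts1 was at 10.38, 9.32, 9.37 and 9.49 in CD90- samples 13, 15, 17 and 19 and at 11.56, 11.57, 11.17 and 11.26 in CD90+ samples 14, 16, 18 and 20. Every CD90+ sample lay above every CD90- sample, of which sample 13 was the highest, and the difference was 1.75 (95% confidence interval 1.23 to 2.27; limma adjusted p = 0.000549). Adamts9 was at 9.63, 9.83, 9.66 and 9.79 in the CD90- and at 7.4, 7.66, 7.92 and 7.73 in the CD90+ samples. This was a difference of -2.05 between groups with little spread (95% confidence interval -2.3 to -1.79; limma adjusted p = 3.5e-06). Adamts5, the main aggrecanase of mouse cartilage, was at 9.4, 9.09, 9.07 and 9.1 against 10.38, 10.16, 9.58 and 9.66. Its samples did not overlap, and the difference was 0.78 (limma adjusted p = 0.012). Adamts4 was bright in both populations, at 13.6 ± 0.41 and 13.49 ± 0.18, and the interval of its difference ran from -0.56 to 0.33 (limma adjusted p = 0.704). Adamts8, Adamts15 and Adamts20 were dim and not tested. Without the filter Adamts15 and Adamts20 were called higher, from 4.84 ± 0.14 to 5.27 ± 0.13 and from 4.61 ± 0.1 to 4.89 ± 0.054 (limma adjusted p = 0.0132 and 0.0231).

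Of the procollagen N-proteinases, which remove the amino-terminal propeptide of fibrillar collagens, Adamts14 was higher and Adamts3 was not called. Adamts14 was at 7.02, 6.78, 7.54 and 7.28 in the CD90- and 7.64, 7.63, 8.19 and 7.97 in the CD90+ samples, not far above the negative control rows, with a difference of 0.71 (limma adjusted p = 0.0205). It was not called without sample 18 or without sample 20 (limma adjusted p = 0.0548 and 0.0568). Adamts3, which also activates VEGFC, was at 8.76 ± 0.38 and 8.15 ± 0.35 with overlapping samples. Its difference was -0.61 (limma adjusted p = 0.0681), and it was called lower without sample 18 or without sample 15, with adjusted p down to 0.0277.

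Among the other ADAMTS proteases Adamts19, Adamts10, Adamts6, Adamts12 and Adamts17 were higher in the CD90+ population, and Adamts18 was lower. Adamts19 codes for an ADAMTS whose substrate is little known. It was at 7.43, 5.94, 6.36 and 6.13 in the CD90- and at 10.19, 9.09, 9.99 and 9.4 in the CD90+ samples. Only sample 13 of the CD90- samples lay above the negative control rows, and the difference was 3.2 (95% confidence interval 2.4 to 4.01; limma adjusted p = 0.000206), a size that is not exact because the CD90- mean lay below those rows. Its interval overlapped that of Adam23, and their order turned without sample 15, 18 or 19. Adamts10, whose protein binds fibrillin-1 in microfibrils, was at 9.44, 9.15, 9.17 and 9.31 against 10.86, 11, 10.99 and 10.89. Both groups were tight, and the difference was 1.67 (95% confidence interval 1.48 to 1.85; limma adjusted p = 1.89e-06). Its paralog Adamts6 was at 7.13, 6.38, 6.33 and 6.41 against 8.42, 7.77, 7.46 and 7.42. Samples 13 and 14 were the highest of their populations, and the difference was 1.21 (limma adjusted p = 0.00748).

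Adamts12, which cuts cartilage oligomeric matrix protein, was at 9.12, 9.24, 9.26 and 9.27 in the CD90- and 10.42, 10.18, 9.67 and 9.8 in the CD90+ samples, higher by 0.8 (limma adjusted p = 0.00503). Adamts17, another relative of Adamts10 and Adamts19, was at 6.81, 7.12, 6.88 and 7.08 in the CD90- and 7.53, 7.59, 7.7 and 7.55 in the CD90+ samples, higher by 0.62 (limma adjusted p = 0.000771). Adamts7, which also cuts cartilage oligomeric matrix protein, was at 7.18 ± 0.24 and 7.05 ± 0.12 and was not called (limma adjusted p = 0.464). Adamts18 was dim in both populations, at 6.28 ± 0.28 and 5.11 ± 0.083, with a difference of -1.17. It passed the filter only through the CD90- samples; without the filter its limma adjusted p was 0.000308. The von Willebrand factor protease gene Adamts13 was dim and not called, and Adamts16 was not tested.

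Of the 5 ADAMTS-like genes 3 were higher in the CD90+ population and 2 were not called. Adamtsl5 was at 7.57, 7.05, 7.27 and 7.23 in the CD90- and at 9.18, 9.64, 9.49 and 9.58 in the CD90+ samples. No values overlapped, and the difference was 2.19 (95% confidence interval 1.89 to 2.5; limma adjusted p = 6.64e-06). Adamtsl4, whose protein binds fibrillin-1, was at 10.31, 10.14, 10.18 and 10.21 in the CD90- and 11.0, 11.22, 10.98 and 11.12 in the CD90+ samples, higher by 0.87 (limma adjusted p = 4.41e-05). Adamtsl2, known from binding latent TGF-beta binding protein 1, was higher by 0.89 but dim in both populations, at 5.39 ± 0.1 and 6.28 ± 0.13 (limma adjusted p = 8.77e-05).

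The 2 that were not called had the widest spread of the ADAMTS-like genes within a population. Adamtsl3 was at 9.39, 7.44, 6.91 and 7.4 in CD90- samples 13, 15, 17 and 19 and at 10.31, 9.05, 8.18 and 8.49 in CD90+ samples 14, 16, 18 and 20. Samples 13 and 14 were the highest of their populations, and the difference of 1.22 was not called in the fit without pairs (95% confidence interval -0.16 to 2.6; limma adjusted p = 0.167). Without samples 13 and 14 it was 1.32 (limma adjusted p = 0.00568), and without sample 13 alone 1.76 (limma adjusted p = 0.0243). Adamtsl1 was at 9.83, 8.91, 8.56 and 8.8 against 10.07, 9.06, 8.39 and 8.68, again with samples 13 and 14 highest. Its difference was 0.023 (95% confidence interval -0.86 to 0.91; limma adjusted p = 0.972).

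**Figure D4:**
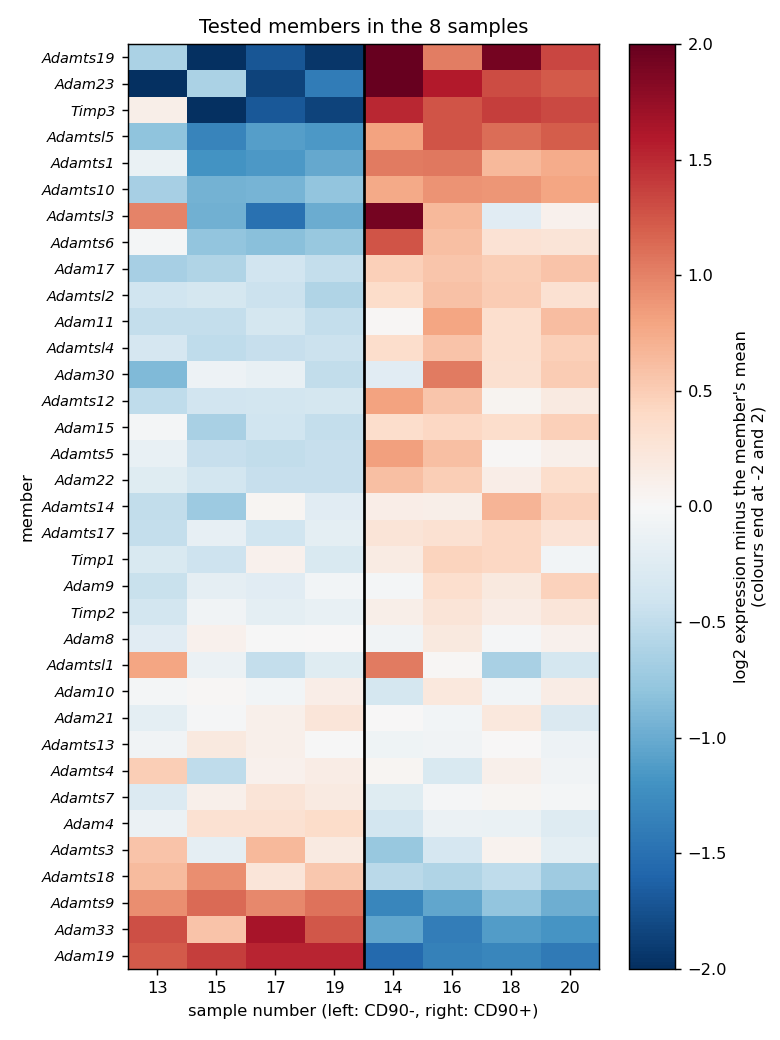
Log2 expression of the 35 tested members in the 8 samples, each member minus the mean of its 2 population means and ordered by difference; colours end at -2 and 2. Samples 13 and 14 share high values of Adamtsl3 and Adamtsl1 across the line between the populations, and sample 13 is paler than the other CD90- samples for Timp3 and Adamts1.

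Sample 13 was the highest CD90- sample for 10 of the 21 members called higher, and the lowest for 8 of them. In the same sample Kit, a marker of interstitial cells of Cajal, was at 10.56, against 6.63 to 7.49 in the other CD90- samples, and the mean of Kit and Ano1 was 10.97 against 8.28 to 8.78. Etv1 of the same list was not among the genes measured here. In sample 14 the smooth muscle list mean was 9.83, against 8.6 to 8.65 in the other CD90+ samples. The part of these cells, and of whatever sets the pair apart in Xist and Uty, in the members' values was not tested. Without samples 13 and 14, 21 members were called higher and 5 lower, but not the same ones: Timp1 lost its call (limma adjusted p = 0.0852) and Adamtsl3 gained one.

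Genes that work with these proteases moved in both directions. Of 16 tested regulators 6 were higher and 4 lower. Ccbe1, among the 6, passed the filter only through the CD90+ samples and had to differ. Papln, which codes for papilin, a matrix protein related to the ADAMTS ancillary domains, was at 8.73 ± 0.18 in CD90- and 5.77 ± 0.1 in CD90+ samples (limma adjusted p = 3.56e-07), the CD90+ level being below the negative control rows. Pcsk6, a proprotein convertase, fell by 2.39 (limma adjusted p = 2.09e-05), and Lrp1, an endocytic receptor that clears several of these enzymes, was higher by 0.87 (limma adjusted p = 0.000737). Tspan5, a tetraspanin that escorts ADAM10, was higher by 1.38, from 8.26 ± 0.16 to 9.64 ± 0.22 (limma adjusted p = 5.74e-05). Of genes chosen after their values were seen, Tspan15, another ADAM10 tetraspanin, was higher by 1.34 (limma adjusted p = 0.00454). Rhbdf2, the gene of the ADAM17 partner iRhom2, fell by 0.55 (limma adjusted p = 0.000863), while its paralog Rhbdf1, chosen in the same way, was at 9.54 ± 0.18 and 9.62 ± 0.058 (limma adjusted p = 0.601). Adamdec1, an ADAM-like protease gene outside the symbol rule and chosen in the same way, was among the brightest clusters, at 18.85 ± 0.099 and 18.44 ± 0.21. Its samples overlapped, and it was called lower by a difference of -0.42 (limma adjusted p = 0.0202).

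Of 14 tested matrix substrates 6 were higher and 2 lower. Vcan, the versican gene and a substrate of ADAMTS1, ADAMTS5 and ADAMTS9, was higher by 1.8 (limma adjusted p = 8.15e-06), and Lox, a cross-linking enzyme of collagen and elastin, by 0.94 (limma adjusted p = 0.000114). Eln was higher by 4.77 (limma adjusted p = 1.06e-05), and Col1a2 fell by 0.72 (limma adjusted p = 8.96e-05). Chosen after their values were seen, Acan, Bcan and Ncan, genes of the other hyaluronan-binding proteoglycans cut by these enzymes, were not tested, with means between 4.02 and 5.25.

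Of 23 tested substrates of the sheddases 7 were higher and 9 lower. Cdh2, among the 7, passed the filter only through the CD90+ samples and had to differ. Efnb2, the ephrin-B2 gene, was at 13.68 ± 0.2 in the CD90- and 9.5 ± 0.21 in the CD90+ samples (limma adjusted p = 2.17e-07). Nrg1, the gene of neuregulin-1, fell by 4.74 (limma adjusted p = 7.45e-06). Cdh11, a cadherin of mesenchymal cells, fell by 1.97 (limma adjusted p = 7.59e-06), and Ptprk, a receptor tyrosine phosphatase, fell by 1.58 (limma adjusted p = 1.95e-06). Tnf and Tgfa, substrates of ADAM17 that were also chosen with their values known, were not tested, at 5.19 ± 0.1 and 5.23 ± 0.043 for Tnf and 5.23 ± 0.08 and 5.22 ± 0.086 for Tgfa. Of 13 tested partners of the TIMPs, mostly matrix metalloproteinases, 3 were higher and 4 lower. Mmp13, among the 4, passed the filter only through the CD90- samples and had to differ. Mmp11 and Mmp16 were higher by 2.77 and 2.08 (limma adjusted p = 1.03e-06 and 8.16e-05), and Mmp2 fell by 0.86 (limma adjusted p = 9.57e-05). Mmp10 was lower, at 10.36 ± 0.49 and 6.21 ± 0.27 (limma adjusted p = 4.64e-06); its CD90+ mean lay below the negative control rows, so the size of its difference is not exact. Mmp14, the membrane-bound enzyme that acts with TIMP2 on MMP2 and likewise chosen with its values known, was bright at 13.22 ± 0.21 and 13.49 ± 0.29 and was not called (limma adjusted p = 0.242).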

How the data were processed

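RNA from 8 sorted samples was amplified from 2 ng and hybridised to 8 one-colour Affymetrix mouse transcriptome arrays, per the labels' protocols. The authors deposited log2 values per transcript cluster, made with Affymetrix Expression Console 1.1 and RMA, per the submitters' processing notes; settings and genome build are not given in the sources used here. Amplification from so little RNA can widen the spread of dim transcripts, and the number of arrays limits the precision.

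Control rows (6732 of 72688) were left out, and 31258 clusters that name 1 gene, judged by symbol, were kept (2 or more genes and unnamed clusters were not used). Symbols were updated through RefSeq (GRCm38.p6), and a gene was read from its cluster with the highest mean. Genes at or above 5.36 in at least 4 samples were tested with limma 3.58.1 (lmFit, eBayes; R 4.3.3), two-sided, Benjamini-Hochberg adjusted over 17221 genes, threshold 0.05, without a block, since no label ties samples to mice. The step was tested on simulated data. Promoters came from RefSeq's table. Python 3.11.15, pandas 2.3.3 and matplotlib 3.10.9 prepared tables and figures.

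Bright members are named with values (by sample where called) and dim ones by name or by counts and ranges. The dim members given with values of their own were chosen after those were seen. Of each list of regulators, substrates and partners, up to the 4 called genes with the smallest p are named, and others are marked. Cell type markers did not follow this rule. They are given by list, and only some of their called genes are named. Members and lists were chosen with earlier results of these data known. Alternatives changed the filter, normalization, variance model, array weights, choice of cluster and samples.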

Additional observations from a re-analysis of the deposited data

Results flagged for a closer look

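Of 70 sets of 4 values (35 tested members in 2 populations), 6 held a sample that stood far from the other 3, where chance gives about 1 in 20. In 5 of the 6 this was sample 13 of the CD90- population. It was high for Timp3, at 10.32 against 8.17 to 8.51 in the other CD90- samples, for Adamts1, at 10.38 against 9.32 to 9.49, for Adamts6, at 7.13 against 6.33 to 6.41, and for Adamts5, at 9.4 against 9.07 to 9.1. It was low for Adam4, at 9.68 against 10.09 to 10.16. The remaining one was Adam11 in CD90- sample 17, at 5.8 against 5.68 in each of the others, a small gap in a dim gene. Without sample 13 the differences of Timp3, Adamts1, Adamts6 and Adamts5 were called as before.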

How the results depend on the processing

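Over 17 alternatives the count of members called higher ran from 17 to 23 and that of members called lower from 4 to 6. The count of 17 was among 27 members tested with the filter at the negative control rows. That of 23 was among 58 without a filter. Leaving out 1 sample, with 35 members tested, gave 18 to 20 and 4 to 6. All 26 called members kept their direction wherever they were tested, and 20 kept their call. A change of the filter or of the variance model cannot alter a difference, so for these alternatives the direction was fixed in advance. The choice of cluster changed neither the direction nor the call of any of the 35 tested members. A member with only 1 cluster, however, keeps its difference under any such choice. Timp3 stayed at 2.734 and Adam15 at 0.788, for example, so this alternative was no check of them. Adam30, Timp1, Timp2, Adam9, Adamts14 and Adam4 lost their call under some alternative. Without the filter Timp1 and Adam30 were not called (limma adjusted p = 0.0522 and 0.0712). Differences near 0 changed sign without ever being called, and the cause was not tested: Adam10 was 0.007 with array weights, 0.07 without samples 13 and 14, and -0.098 to 0.086 when 1 sample was left out. Adamtsl1 was -0.02 after centring each array on its median, -0.048 with array weights, -0.05 without samples 13 and 14, and -0.318 to 0.29 when 1 sample was left out. When 1 sample was left out Adamts4 ran from -0.301 to 0.031 (above 0 without sample 13) and Adam21 from -0.141 to 0.024 (above 0 without sample 19 or 20). Centring shifted the median difference of all genes from -0.014 to -0.058. No paired analysis was possible because the populations share no replicate number and no label says which samples share a mouse. Members below the negative control rows have only uncertain sizes.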
